A study of Homo sapiens with 6 samples.

Results

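The major histocompatibility region was taken as chromosome 6 from 28500000 to 33500000 in the genome build hg19, a stretch of 5 Mb. Its members were the peaks whose midpoint lies in it, from the 4 deposited peak lists. They numbered 330 of 181131 peaks, with 59 in the RIP-1 mRNA list, 59 in the RIP-1 non-exon list, 29 in the RIP-2 mRNA list and 183 in the RIP-2 non-exon list. The peaks come from RNA immunoprecipitation and sequencing (RIP-seq) of SF3B4 in wild-type HEK293T cells, an established human line of embryonic kidney origin that carries the SV40 large T antigen. There were 2 experiments, RIP-1 and RIP-2, and each had an anti-SF3B4, an IgG and an input library. Peaks were called by the authors separately for each experiment, and each call came in an mRNA and a NotExon file. The NotExon file is called the non-exon list. What these names mean is not stated.

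SF3B4 belongs to the SF3b complex of the U2 snRNP, the particle that recognises the branch site of introns in splicing. The histocompatibility region is one of the most gene-dense and most polymorphic stretches of the human genome. Its class I part is known for antigen presentation to cytotoxic T cells and also holds olfactory receptor, TRIM and zinc finger genes. The class III part holds genes for the complement proteins C2, factor B and C4, for tumour necrosis factor, for heat shock proteins, and many genes that most cells use. Class II holds the HLA-DR, HLA-DQ and HLA-DP genes, which are mainly active in cells specialised in presenting antigen, and the TAP1 and TAP2 genes of the peptide transporter. In the RefSeq gene order of GRCh38.p14, 69 protein-coding genes and 83 pseudogenes run from TRIM27 to MICA, the stretch that corresponds to class I. A further 60 protein-coding genes and 9 pseudogenes run from MICB to NOTCH4 (class III), and 34 and 17 from HLA-DRA to KIFC1 (class II). That table is of another build than the peaks, so it gives names and order only. No peak was assigned to a gene, and which HLA gene, if any, a peak belongs to is not stated here.

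Each peak has a score that behaves as 10 times the negative log10 of a p-value, with a floor of 50, and many of the strongest peaks of the series stand at 3100. Non-exon peaks also have a fold enrichment over a control that is not named, and an FDR (false discovery rate), given as a percentage. All 3 are the authors' own values. Each list stands for 1 experiment and the depth of the libraries is unknown. The spread between replicates therefore cannot be estimated, and no difference below was tested. Intervals are 95% intervals for counting error alone, exact Poisson for counts and Wilson for shares. They treat peaks as independent, although neighbouring peaks can come from 1 transcript. Numbering showed no gap in the region: RIP-1 peaks ran from 28227 to 28344 and RIP-2 peaks from 108758 to 108969, and every number stood in 1 of the 2 lists of its experiment.

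Class III was the densest part of the region in the RIP-1 mRNA list. It held 20 of the 59 RIP-1 mRNA-list peaks (33.9%) on 16% of the length. That is 25 peaks per Mb (interval 15.3 to 38.6), and the whole RIP-1 mRNA list has 3.54 per Mb. Class I followed with 28 peaks, or 9.66 per Mb (6.42 to 13.95), and class II with 11 peaks, or 8.46 per Mb (4.22 to 15.1). In the RIP-2 mRNA list, class III held 6 peaks, or 7.5 per Mb (2.75 to 16.3), class I 15, or 5.17 per Mb (2.89 to 8.53), and class II 8, or 6.15 per Mb (2.66 to 12.1). The whole RIP-2 mRNA list has 3.32 per Mb. All 3 classes thus lay above the density of the whole list in both mRNA lists, but the RIP-2 intervals of the 3 classes reached below it.

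In the non-exon lists the experiments differed in direction. The RIP-1 non-exon list had 33 peaks in class I (11.4 per Mb, interval 7.83 to 15.98), 14 in class III (17.5 per Mb, 9.57 to 29.4) and 12 in class II (9.23 per Mb, 4.77 to 16.1), and the whole list has 8.34 per Mb. The RIP-2 non-exon list had 115 peaks in class I (39.7 per Mb, 32.7 to 47.6), 26 in class III (32.5 per Mb, 21.2 to 47.6) and 42 in class II (32.3 per Mb, 23.3 to 43.7), and the whole list has 43.3 per Mb. Over the region these are 1.42 times the density of the whole list in RIP-1 and 0.845 times in RIP-2. The region is not alone in this. The first 20 Mb of chromosome 19 had 15.3 RIP-1 and 28.85 RIP-2 non-exon peaks per Mb, and the region had 11.8 and 36.6. The 5 Mb before the region had 7.2 and 48.6, and the 5 Mb after it 11.8 and 48.2.

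**Figure D1:**
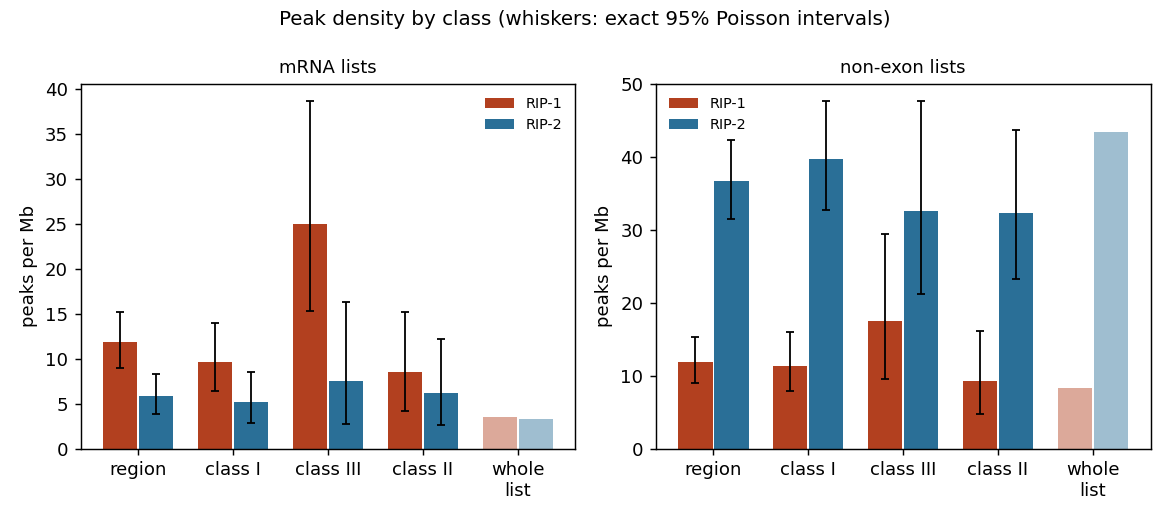
Peaks per Mb of the whole region, of its 3 classes and of the whole list, with RIP-1 and RIP-2 side by side, for the mRNA lists (left) and the non-exon lists (right). Whiskers are exact 95% Poisson intervals of the counts. The RIP-1 mRNA list stands out in class III with 25 peaks per Mb, and the RIP-2 non-exon list lies below its whole-list density of 43.3 per Mb in every class.

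**Figure D2:**
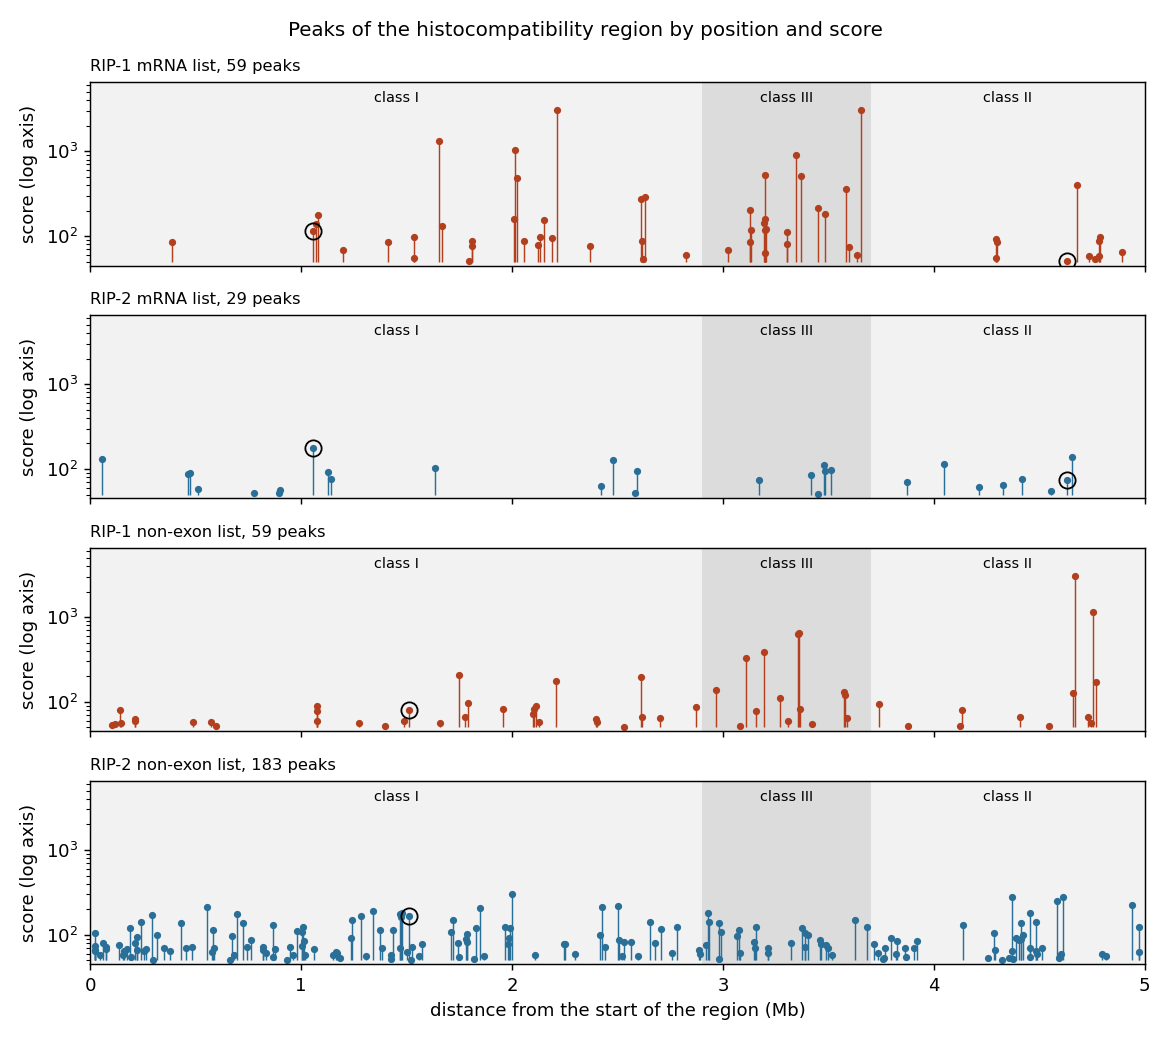
Every peak of the region by its distance from the start of the region (Mb) and its score (log axis), in the 4 lists, with shading for class I, class III and class II. Circles mark the peaks that overlap a peak of the other experiment in the same kind of list, which are 2 in each mRNA list and 1 in each non-exon list. Scores above 400 occur in the RIP-1 lists alone.

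Set among 564 windows of 5 Mb across the genome, the region ranked 15th from the top by RIP-1 mRNA-list peaks, with 59 against a median of 14. By RIP-2 mRNA-list peaks it ranked 90th (29 peaks, median 16). By RIP-1 non-exon peaks it ranked 97th (59, median 42), and by RIP-2 non-exon peaks it ranked 387th (183, median 224). The 5 Mb before the region had 27 RIP-1 and 31 RIP-2 mRNA-list peaks, and the 5 Mb after it had 60 and 16. The RIP-1 count after the region was as high as inside it. The first 20 Mb of chromosome 19 had 16.45 RIP-1 and 5.25 RIP-2 mRNA-list peaks per Mb, and the region had 11.8 and 5.8.

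The mRNA list took a larger part of both calls here than in the whole series. In RIP-1, 59 of 118 peaks of the region stood in the mRNA list (50%, interval 41.1 to 58.9), and in the whole call 29.8% did. In RIP-2 it was 29 of 212 (13.7%, 9.70 to 18.96), and in the whole call 7.12%. Among 487 windows of 5 Mb with at least 30 RIP-1 peaks, 465 had a lower mRNA-list part than the region. The gene-dense first 20 Mb of chromosome 19 had values close to those of the region, 51.8% for RIP-1 and 15.4% for RIP-2. So did the 5 Mb before the region, with 42.9% for RIP-1 and 11.3% for RIP-2. The 5 Mb after it had 50.4% for RIP-1 and 6.23% for RIP-2.

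The mRNA-list intervals of the region were wide for their lists. Their median width was 660 bp in RIP-1, where the whole list has 216 bp, and 249 bp in RIP-2, where it has 160 bp. Intervals under 200 bp, which is the shortest peak in either non-exon list, made up 9 of 59 in RIP-1 (15.3%, interval 8.24 to 26.5) and 46.4% of the whole RIP-1 list. In RIP-2 they made up 11 of 29 (37.9%, 22.7 to 56.0) and 60.8% of the whole list. The shortest was 15 bp, in RIP-2. Strand was uneven in RIP-1, where 40 of 59 intervals lay on the minus strand (67.8%, interval 55.1 to 78.3) and 48.8% of the whole list did. In class III it was 15 of 20, in class II 9 of 11 and in class I 16 of 28. RIP-2 had 16 of 29 on the minus strand (55.2%, 37.5 to 71.6).

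High scores made up a larger share of the RIP-1 mRNA-list members than of their whole list. In the RIP-1 mRNA list 9 of 59 members scored 400 or more (15.3%, interval 8.24 to 26.5), against 4.95% of the whole list. They are 9 of the 32 such peaks on all of chromosome 6. The region is not alone in this, since the first 20 Mb of chromosome 19 had 33 of 329 RIP-1 peaks at 400 or more. The 5 Mb before the region had 2 of 27, and the 5 Mb after it 5 of 60. In the RIP-2 mRNA list 0 of 29 did, which allows a share of up to 10.3%, and 0.545% of the whole RIP-2 list did, so a count of 0 does not set the RIP-2 members apart. Median scores of the region were 97.2 in RIP-1 (quartiles 75.2 and 179) and 76.5 in RIP-2 (62.1 and 98.0). The whole lists have medians of 79.9 and 79.6, and the first 20 Mb of chromosome 19 have 93.5 and 81.6.

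In class I, the strongest RIP-1 mRNA-list peak lay on the minus strand from 30710975 to 30712325 (hg19, chromosome 6, as are all positions here), with a score of 3100. It shares the 8th place of the whole RIP-1 mRNA list with the other peaks at that value. A non-exon peak from 30707580 to 30710333 ended 642 bp before it, with a score of 176.69 and a fold enrichment of 3.94. The nearest RIP-2 mRNA-list peak was 209164 bp away. The next was a minus-strand interval of 2104 bp from 30152231 to 30154335, with a score of 1312. Next was the minus-strand interval from 30513027 to 30514090, with a score of 1035. It stood between a weaker interval from 30509662 to 30511087 (score 158) and one from 30523907 to 30525371 (score 486), all on the same strand. The 5th was on the plus strand from 31130253 to 31131898, with a score of 291. These 5 lay between 16043 and 387719 bp from the nearest RIP-2 mRNA-list peak. The remaining 23 class I peaks of RIP-1 scored 51.2 to 276.

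RIP-2 had no class I peak of comparable score in its mRNA list. Its strongest was the plus-strand interval from 29555757 to 29556293, with a score of 179. It overlapped a RIP-1 peak from 29555762 to 29556745 with a score of 115, so the starts of the pair differed by 5 bp and the ends by 452 bp. The next in RIP-2 were from 28554074 to 28554443 on the minus strand (score 130), from 30978250 to 30978370 on the plus strand (score 129), from 30136076 to 30136188 on the plus strand (score 104) and from 31093452 to 31093616 on the plus strand (score 95.2). Of the 15 class I peaks of RIP-2, 11 scored under 100. They were placed differently too, since 10 of the 15 lay before 30 Mb, where RIP-1 had 6 of its 28.

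Class III gave the highest median score of the RIP-1 mRNA list, 132 (quartiles 83.6 and 252), and 4 of its 20 peaks scored 400 or more. The strongest was a minus-strand interval of 1742 bp from 32152509 to 32154251, again at 3100. Second was the minus-strand interval from 31847535 to 31848041 with a score of 905. On the same strand the interval from 31698385 to 31698780 scored 520, that from 31867393 to 31869102 scored 509 and that from 32083075 to 32083745 scored 363. The nearest RIP-2 mRNA-list peak to these 5 was between 29580 and 138949 bp away. All 5 are on the minus strand. RIP-2 had 6 class III peaks, from 31668718 to 31668805 (minus strand, score 74.6), from 31915518 to 31915620 (plus, 84.4), from 31950494 to 31950696 (plus, 51.0), from 31980103 to 31980706 (minus, 112), from 31983232 to 31983434 (plus, 93.8) and from 32012957 to 32013560 (minus, 98.0). No RIP-2 mRNA-list peak of class III scored above 112.

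Class II had weaker mRNA-list peaks than the region as a whole in RIP-1, with a median score of 64.7 against 97.2. In RIP-2 its median of 72.7 was close to the 76.5 of the region. A single RIP-1 peak stood above the others, on the plus strand from 33176541 to 33177467 with a score of 404. The next 4 were from 33288512 to 33289751 (score 97.2), from 32796129 to 32796811 (92.0), from 33283552 to 33284762 (87.3) and from 32800403 to 32800601 (85.3), each on the minus strand. In RIP-2 the strongest was a minus-strand interval of 52 bp from 33157194 to 33157246, with a score of 138. It was followed by the minus-strand intervals from 32546546 to 32546795 (score 115), from 32920060 to 32920238 (76.5), from 33130979 to 33131520 (75.03) and from 32372826 to 32373063 (70.4). The first of these 4 lies in a stretch in which the RIP-1 mRNA list was empty over 641 kb, from 32154251 to 32795314. RIP-2 had 3 mRNA-list peaks there, and RIP-1 had 4 non-exon peaks.

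Among non-exon peaks, low FDR values made up a larger share in the RIP-1 members than in the whole RIP-1 list. Of the 59 RIP-1 non-exon members, 4 had an FDR of 5% or less (6.78%, interval 2.67 to 16.2), against 0.678% of the whole list. Chromosome 6 holds 6 such peaks in all, so 4 of the 6 lie in the region. The first 20 Mb of chromosome 19 had 8 of 306. The 5 Mb before the region had 0 of 36, and the 5 Mb after it 1 of 59. An FDR of 100% stood in 49 of the 59 RIP-1 members (83.1%), against 94.1% of the whole RIP-1 list. In RIP-2 the lowest FDR of the region was 68.5%, and none of the 134094 peaks of the whole list had one of 5% or less. That lowest value stood with the lowest score of the RIP-2 non-exon members, 50.48, and the highest score, 303.55, had an FDR of 100%. RIP-2 FDR values thus broadly rose with the score. Of the 183 RIP-2 members, 68 (37.2%) had 100%, against 41.6% of the whole list. The first of the 4 RIP-1 peaks at 5% or less lay in class II from 33167995 to 33172276. It had a score of 3026, a fold enrichment of 9.33 and an FDR of 2.38%. Another class II peak from 33254252 to 33258638 had a score of 1154, a fold of 14.9 and an FDR of 4.96%. In class III, a peak of 7979 bp from 31850104 to 31858082 had a score of 628, a fold of 25.9, the highest of all RIP-1 members, and an FDR of 4.16%. Beside it, from 31859991 to 31860968, stood the last of the 4, with a score of 647, a fold of 8 and an FDR of 4.32%. Just outside the limit were class III peaks from 31696058 to 31696926 (fold 12.6, FDR 5.58%) and from 31607829 to 31611055 (fold 4.78, FDR 7.85%). The 3rd highest RIP-1 folds within their own class were 9.53 in class III, from 31771245 to 31771726, and 8.30 in class II, from 32632444 to 32633092. No RIP-1 class I peak had an FDR under 40.7%, and the highest class I folds were 9.04 from 29989110 to 29990048, 8.99 from 30010452 to 30011114 and 8.70 from 28642077 to 28642516.

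RIP-2 non-exon members had a higher median fold, 8.19 (quartiles 7.23 and 9.64), and it equals the median of the whole RIP-2 list. RIP-1 members had a median of 6.48 (4.74 and 7.67), and the whole RIP-1 list has 6.55. The 2 highest RIP-2 folds of the region lay in class I. The 3 highest of that class were 20.7 from 30501424 to 30501839 (score 304), 15.9 from 30345405 to 30346223 (score 209) and 13.4 from 30914323 to 30915059 (score 99.0). In class III they were 13.5 from 31432103 to 31432897, 12.05 from 31890267 to 31891064 and 11.7 from 31655635 to 31656416. In class II they were 14.45 from 33438212 to 33439087, 12.5 from 32982508 to 32983471 and 11.3 from 32787186 to 32787848. Of these 9 peaks, 8 had an FDR of 100%, and that from 31890267 had 85.6%. The latter had the lowest score of the 9, 72.3, and RIP-2 FDR values broadly rose with the score. An FDR of 100% therefore does not mark the weaker RIP-2 peaks. A further class II peak, from 32868526 to 32869682, had the same fold of 11.3 as that from 32787186. Its score was 282, against 106, and its FDR was 100%. The highest fold stood in class III for RIP-1 and in class I for RIP-2. The depths and controls of the experiments are unknown, so no test was made between them.

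Sharing between the experiments was lower than in the whole lists for non-exon peaks. For mRNA-list peaks it rested on 2 pairs, too few to set the region apart from the whole lists or to show that it equals them. In the mRNA lists 2 of 59 RIP-1 members overlapped a RIP-2 peak on the same strand by at least 1 bp (3.39%, interval 0.935 to 11.5), against 6.41% of the whole list. From the RIP-2 side it was 2 of 29 (6.90%, 1.91 to 22.0), against 6.91% of the whole list. Among 90 windows of 5 Mb with at least 30 RIP-1 mRNA-list peaks, 37 had a lower shared percentage than the region, and the median was 4.09%. Besides the class I pair at 29555757, the other pair lay in class II on the minus strand. There the RIP-1 interval from 33131054 to 33131467 (score 51.4) stood inside the RIP-2 interval from 33130979 to 33131520 (score 75.03). Class III had 0 of 20 RIP-1 peaks shared, which allows a share of up to 15%. Both shared RIP-1 peaks were of moderate or low score, at place 3022 and 10557 of 10960.

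In the non-exon lists 1 of 59 RIP-1 members was shared (1.69%, interval 0.300 to 8.996), against 18.1% of the whole list. That peak lay in class I from 30010452 to 30011114, with a fold of 8.99, inside a RIP-2 peak from 30010228 to 30011368 with a fold of 10.6. Both peaks of this pair had an FDR of 100%. Among 440 windows of 5 Mb with at least 30 RIP-1 non-exon peaks, 1 window had a lower shared percentage, and the median was 18.4%. The rest of chromosome 6 had 325 of 1545 (21.0%, interval 19.1 to 23.1). The 5 Mb before the region had 10 of 36 (27.8%, 15.8 to 44.0) and the 5 Mb after it 14 of 59 (23.7%, 14.7 to 36.0). The first 20 Mb of chromosome 19, which is also dense in mRNA-list peaks, had 18 of 306 (5.88%, 3.75 to 9.11). From the RIP-2 side, 1 of 183 members was shared (0.546%, interval 0.0965 to 3.03), against 3.63% of the whole list. RIP-2 non-exon peaks covered 2.18% of the region and 2.81% of the genome up to the last peak of each chromosome, so they were slightly sparser here than elsewhere. How much of the low sharing goes with that was not tested. Overlap between lists of different kind is rare in the whole series, at 0.173% of RIP-1 mRNA-list peaks and 0.0853% of RIP-1 non-exon peaks. The region had 0 of 59 for each, which allows a share of up to 5.08% and does not set it apart.

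Distances to the other experiment were longer than in the whole list for RIP-1 non-exon members and close to those of the whole list for RIP-2 ones. The median distance from a RIP-1 non-exon member to the nearest RIP-2 non-exon peak was 11823 bp, and in the whole list it is 4499 bp. Within 5 kb of a RIP-2 peak lay 16 of the 59 (27.1%), against 52.6% of the whole list. The first 20 Mb of chromosome 19 had a longer median distance, 20522 bp, with 21.9% within 5 kb. From the RIP-2 side the median was 34148 bp for the members and 33056 bp for the whole list. By class, for RIP-1, the median distance was 8513 bp in class I, 15642 bp in class III and 30407 bp in class II. For mRNA-list peaks, with strand ignored, it was 69515 bp for RIP-1 in the region and 55370 bp in the whole list.

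The fullest stretches of the region were not the same in the 2 experiments. The lists differ in size, with 59 RIP-1 and 29 RIP-2 mRNA-list members, and 59 and 183 non-exon members. How much of each contrast in count goes with list size was not tested. From 28.5 to 29.5 Mb, RIP-1 had 1 mRNA-list and 9 non-exon peaks, against 7 and 49 in RIP-2. From 30.5 to 31 Mb, RIP-1 had 10 and 7 peaks, and RIP-2 had 2 and 8. The fullest bin of 0.5 Mb in RIP-1 was that from 31.5 to 32 Mb, all of it class III, with 16 mRNA-list and 10 non-exon peaks, against 5 and 17 in RIP-2. In RIP-2 the fullest was the first bin, from 28.5 to 29 Mb, with 3 and 28 peaks, against 1 and 7 in RIP-1.

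**Figure D3:**
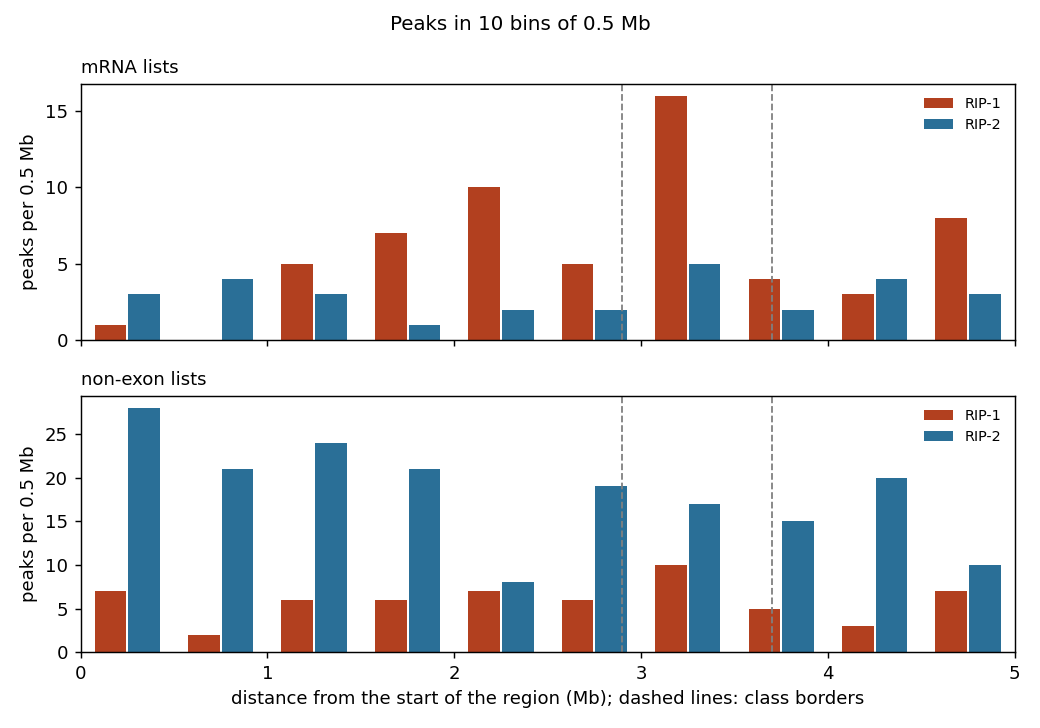
Number of peaks in 10 bins of 0.5 Mb by distance from the start of the region (Mb), for the mRNA lists (top) and the non-exon lists (bottom), with RIP-1 left of RIP-2 in each bin. Dashed lines mark the class borders. The tallest mRNA-list bar is that of RIP-1 from 31.5 to 32 Mb, with 16 peaks, and the tallest non-exon bar is that of RIP-2 in the first bin, with 28.

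The longest stretch without any RIP-2 peak ran for 140 kb from 33157246 to 33296756, at the far end of class II. RIP-1 had 6 mRNA-list and 6 non-exon peaks in it. They include the class II peaks with FDR values of 2.38% and 4.96%, a non-exon peak from 33266848 to 33268300 (score 170, fold 8.01), and the mRNA-list peak with a score of 404. The edges of the stretch are RIP-2 peaks with scores of 138 and 60.1. A similar stretch of 138 kb in class I, from 30609204 to 30747556, had no RIP-2 peak and 5 mRNA-list and 3 non-exon peaks of RIP-1, among them the peak at 3100. The reverse occurred as well. RIP-1 had no peak over 460 kb from 29095865 to 29555762, where RIP-2 had 3 mRNA-list and 22 non-exon peaks.

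**Figure D4:**
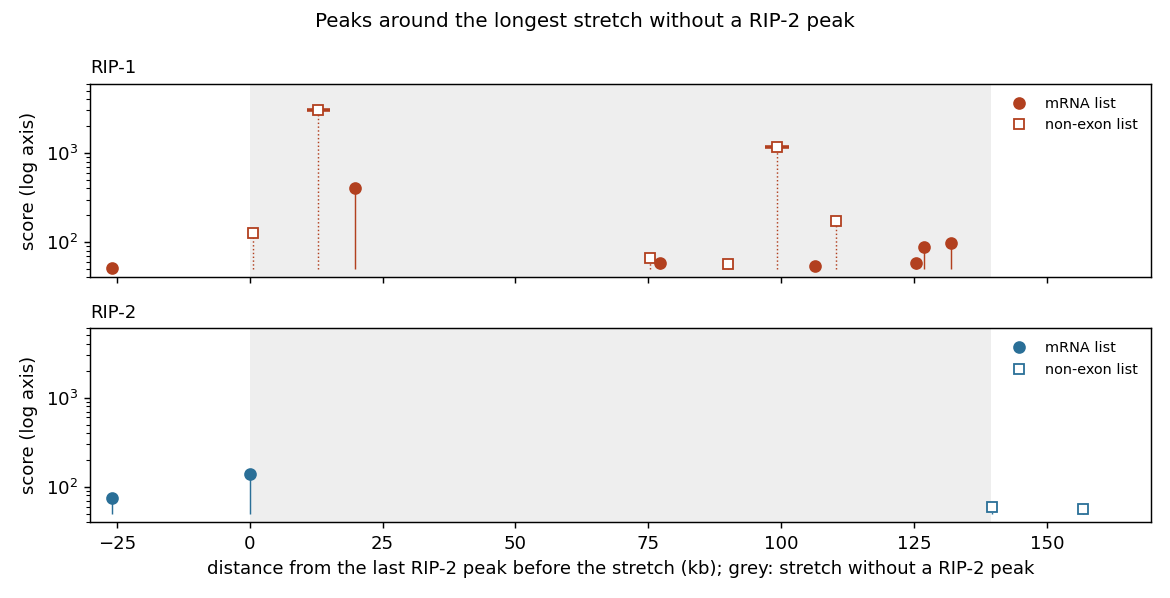
RIP-1 (top) and RIP-2 (bottom) peaks around the longest stretch without a RIP-2 peak, by distance from the last RIP-2 peak before it (kb) and score (log axis). Filled circles are mRNA-list and open squares non-exon peaks, and short horizontal lines show their widths. Inside the grey stretch stand 12 RIP-1 peaks, the highest with a score of 3026, and no RIP-2 peak.

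RIP-1 peaks of the 2 lists stood side by side in chains. With peaks of both lists joined across gaps of at most 5 kb, 65 of the 118 RIP-1 members (55.1%) fell into 22 chains, and 13 of these held peaks of both lists. In RIP-2, 96 of 212 members (45.3%) fell into 44 chains, of which 5 held both lists. All 11 RIP-1 chains with several mRNA-list intervals had them on 1 strand, and 1 of 2 such RIP-2 chains did. Chains were not counted over the whole lists, so these shares do not set the region apart. Chains can form more easily where peaks are dense, and the RIP-1 mRNA list had 11.8 peaks per Mb here against 3.54 in the whole list. The RIP-1 chain with the most peaks had 7 in 9.52 kb of class III, from 31694813 to 31704337. Its 6 mRNA-list intervals, all on the minus strand, scored 142, 63.5, 520, 161, 119 and 122 in order of position, and its non-exon peak scored 385. Another class III chain of 21.6 kb from 31847535 to 31869102 held 5 peaks, all of which are among the strong ones above except a non-exon peak from 31862922 to 31864935 with a score of 82.8. Class I had chains of 5 peaks from 29570004 to 29581262 and from 31110215 to 31122576. Class II had chains of 3 minus-strand mRNA-list intervals from 32795314 to 32800601 and from 33282181 to 33289751, and 1 of 3 peaks of both lists from 33254252 to 33268300. RIP-2 had 0 peaks inside the chains named here. These chains are short and were singled out after their values were seen, so that count does not set them apart. Another RIP-1 chain, from 28709329 to 28714484 in class I, held 1 RIP-2 peak.

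Of the RIP-1 non-exon members, 19 of 59 lay within 5 kb of a RIP-1 mRNA-list interval (32.2%, interval 21.7 to 44.9), against 7.56% of the whole list. In RIP-2 it was 5 of 183 (2.73%, 1.17 to 6.24), against 3.60% of the whole list. The RIP-1 share lay above its whole list and the RIP-2 share did not. The density of mRNA-list intervals, 11.8 per Mb in the RIP-1 region list and 5.8 in the RIP-2 one, moves with it, and its part was not tested.

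Inside class III, 10 peaks of 3 lists formed 5 pairs at nearly the same spacing. They were singled out after their values were seen. As background, class III carries a tandem duplication around the complement C4 genes, but whether these peaks lie in it was not checked, since no hg19 annotation was used. In the RefSeq order C4A, CYP21A1P and TNXA are followed by C4B, CYP21A2 and TNXB. C4A and C4B encode complement component 4, CYP21A2 encodes the steroid 21-hydroxylase of the adrenal cortex and CYP21A1P is its pseudogene copy. In the RIP-1 mRNA list, plus-strand intervals from 31948780 to 31949209 (score 215) and from 31981517 to 31981947 (score 183) had starts 32737 bp and ends 32738 bp apart. In the RIP-2 mRNA list, plus-strand intervals of 202 bp from 31950494 (score 51.0) and from 31983232 (score 93.8) were 32738 bp apart at both edges. Minus-strand intervals of 603 bp from 31980103 (score 112) and from 32012957 (score 98.0) were 32854 bp apart at both edges.

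The RIP-2 non-exon list repeated the spacing. Peaks of 541 bp from 31957565 (fold 11.1, score 87.9) and from 31990303 (fold 10.1, score 75.03) were 32738 bp apart at both edges. Peaks from 31962547 to 31963449 (fold 8.67, score 77.1) and from 31995263 to 31996187 (fold 8.67, score 69.7) had ends 32738 bp apart and starts 32716 bp apart. Between 31948780 and 32013560, a stretch of 64.8 kb, there were 2 RIP-1 mRNA-list, 4 RIP-2 mRNA-list and 4 RIP-2 non-exon peaks, and all 10 belong to these pairs. In the whole region 5 pairs, 10 to 100 kb apart within 1 list and strand, had widths equal within 1 bp. Equal widths give the same offset at both edges by themselves. Of these pairs, 4 were among those already singled out here, so the count is a description only. The placing of reads with several equal alignments is not stated in the sources. If the paired positions are near-identical copies, their reads cannot be told apart, and the values of the pairs are uncertain. RIP-1 and RIP-2 intervals did not overlap here, and each plus-strand RIP-1 interval ended 1285 bp before a plus-strand RIP-2 interval.

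**Figure D5:**
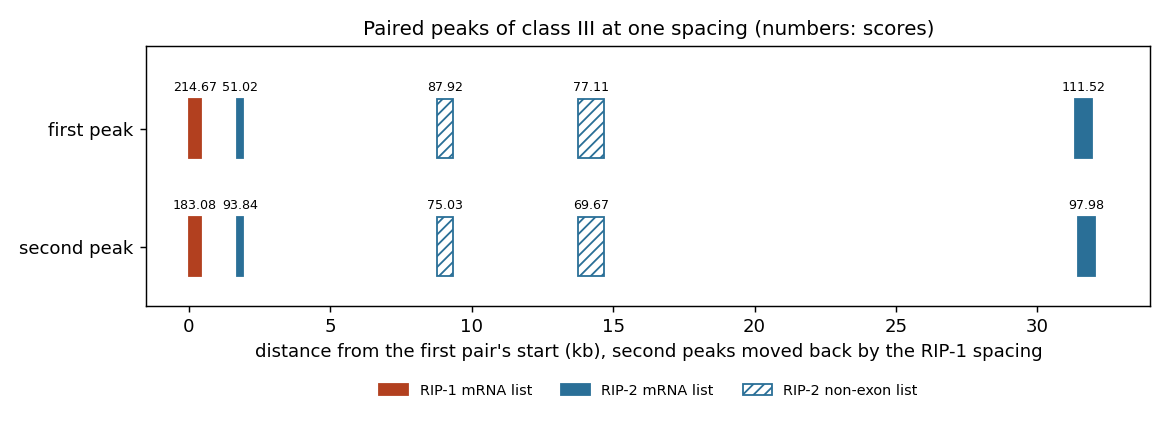
The 5 pairs of class III peaks at 1 spacing, with the first peak of each pair in the upper row and the second in the lower row, by distance from the start of the first pair (kb). The second peaks are moved back by the RIP-1 spacing of 32737 bp, and the numbers are scores. In 4 pairs the second peak falls under the first within 25 bp, and the RIP-2 pair at the right is 117 bp further apart.

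At the borders of the region, the first RIP-1 mRNA-list member was from 28889668 to 28889764 (score 84.4), and the last peak before the border was from 28303606 to 28303911 (score 157). At the far end the last member was from 33393574 to 33393680 (score 64.7) and the next peak outside from 33547801 to 33548070 (score 58.7). For the RIP-2 mRNA list the first member was from 28554074 (score 130) and the last peak outside before it from 28401257 to 28402855 (score 814). Its last member was from 33157194, and the next peak after the region was from 34928152 to 34928243 (score 62.9). In the RIP-1 non-exon list the first member had a fold of 8.29 and the peak before it 11.9, and the last member had 8.01 and the peak after it 4.21. In the RIP-2 non-exon list these folds were 8.19 and 7.23 at the start, and 5.78 and 8.19 at the end. No member of any list reached across a border.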

How the data were processed

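Per the labels, anti-SF3B4, IgG and input libraries from HEK293T cells were made in each of 2 RIP experiments, with ribosomal RNA removed. Per the submitters' processing notes, cutadapt 1.9.3, HISAT2 2.0.4 and the build hg19 were used. The sources used here do not give the peak caller's version, settings or control, nor the handling of reads with several alignments. The authors deposited a score for each peak. For non-exon peaks they also deposited a fold enrichment (a ratio) and an FDR in percent. The files have no header, so these meanings were read from the values and the column order.

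Members were peaks with their midpoint in the region. Class I ran from 28.5 to 31.4 Mb, class III to 32.2 Mb and class II to 33.5 Mb. A shared peak overlapped 1 of the other experiment by 1 bp or more, with equal strand required in the mRNA lists. Positions are as deposited, and those of the mRNA lists are uncertain by 1 bp, since their counting base is unknown. Densities of whole lists used 3094 Mb, the sum of the last peak positions of all chromosomes. Python 3.11.15, numpy 2.4.6 and scipy 1.17.1 were used, and the overlap and interval code was tested on simulated data. The region and all lists were chosen with earlier results of these data known. Named peaks were every shared mRNA-list member, the 5 highest mRNA-list scores and the 3 highest non-exon folds per experiment and class, up to 5 shared non-exon members, and the members nearest the borders. Other peaks, stretches, chains and pairs were singled out after their values were seen. Depth is unknown, and intervals cover counting error only.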

Additional observations from a re-analysis of the deposited data

How the results depend on the processing

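Of 100 alternative values over 26 results, 19 left the counting interval of a share, the quartiles around a median or the range allowed for a count, and 81 did not. The range allowed for a count was not the Poisson interval. With the upper 50% by score of each whole list, the RIP-1 mRNA list kept 41 of its 59 peaks in the region. That is below the Poisson interval of 44.9 to 76.1, but it was counted among the 81. For shares resting on 1 or 2 peaks the counting intervals are wide. Taking members by any overlap, moving the class borders by 100 kb, asking for 50% mutual overlap and ignoring strand moved none. With the upper 50% by score of each whole list, the RIP-1 mRNA list kept 5 peaks in class II, and the RIP-1 non-exon list kept 29 in the region, 13 in class I and 6 in class II. The RIP-2 mRNA list then kept 14 in the region, 8 in class I and 2 in class II. The RIP-2 non-exon list kept 81 in the region, 50 in class I, 14 in class III and 17 in class II. Median scores became 112 for RIP-1 non-exon, 101 for RIP-2 mRNA and 120 for RIP-2 non-exon peaks. These falls in count and rises in score follow from removing the weaker peaks. With the RIP-2 non-exon list cut to the length of that of RIP-1, it kept 32 peaks in the region, 20 in class I, 4 in class III and 8 in class II. Of these 32, 1 was shared (3.13%), which left the interval of 0.0965 to 3.03 of the full list. An alternative added after seeing the data, a partner within 1 kb, gave 3 of 59 RIP-1 non-exon peaks (5.08%) and 3 of 183 RIP-2 non-exon peaks (1.64%), in place of 1.69% and 0.546%. In the upper 50% by score, 1 of 29 (3.45%) and 1 of 81 (1.23%) were shared. The shares within 1 kb and in the upper 50% changed by 2 to 3 times but stayed inside their intervals. Using 1 value per peak number was not run, since no number repeats, nor was the assignment of peaks to genes, for want of an hg19 annotation. No paired analysis was possible because the lists hold no values for single libraries, only 1 call from each RIP. For the same reason no experiment could be left out.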

Other observations

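Certain fold values recurred among the non-exon members. In RIP-2 a fold of 7.71 stood in 27 of 183 members (14.8%; whole list 10.4%) and 8.67 in 21, and the 183 members had 70 distinct values. In RIP-1 a fold of 7.46 stood in 6 of 59 members (10.2%; whole list 4.18%).

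Over 50 windows of 100 kb, the Spearman correlation of peak numbers in RIP-1 and RIP-2 was -0.09 (mRNA lists) and 0.01 (non-exon lists). Between mRNA-list and non-exon peaks of the same experiment it came to 0.28 (RIP-1) and 0.13 (RIP-2). These values describe the windows, which share libraries, and many windows hold no peak.

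The longest gap in the RIP-2 mRNA list was 785 kb, from 30136188 to 30921489. RIP-1 had 15 mRNA-list and 12 non-exon peaks there, and RIP-2 had 21 non-exon peaks.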
